A study of Mus musculus with 6 samples.

Results

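The genes described here are 10 regulators of the luminal lineage of the mammary gland: the ETS factors Elf5, Elf3 and Ehf, the factors Gata3, Foxa1, Spdef and Grhl2, and the hormone receptors Esr1, Pgr and Prlr. They were found by their symbols among the 41388 Ensembl genes of the count files, and all 10 were present. Their RNA levels were compared between tumor-initiating cells (TICs) and the other tumor cells of mammary tumors from MMTV-PyMT mice. These mice, of strain FVB/N-TgN(MMTVPyVT)634Mul/J, carry the polyoma middle T oncogene driven by the long terminal repeat of mouse mammary tumor virus, which is active in mammary epithelium, and both groups come from such tumors. TICs were sorted as CD24+CD90+CD45- cells. The comparison group, labelled primary cells, was sorted as CD45- tumor cells outside the CD24+CD90+ gate according to the study's methods, whereas the series description calls it CD24-CD90- cells. There were 3 samples in each group, each a pool of 4 cell sorts from female mice of 12 weeks with 120 ng of RNA, and no untransformed mammary tissue was included.

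The luminal layer of the mammary gland is held to contain an alveolar branch and a hormone-sensing branch. Elf5 directs the alveolar branch downstream of the prolactin receptor, which signals through Jak2 and Stat5. Hormone-sensing cells carry the estrogen receptor, encoded by Esr1, and the progesterone receptor, encoded by Pgr. In these cells Foxa1 opens chromatin for the estrogen receptor, and Gata3 maintains luminal identity in both branches. Grhl2 sustains epithelial junction genes throughout the epithelium.

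The regulators spanned a wide range of levels, and none of the 8 that could be tested differed between TICs and the other tumor cells at an adjusted p below 0.1. Gata3, Ehf, Elf5, Grhl2 and Prlr had at least 441 counts in every sample, before any correction for gene length. Esr1 and Elf3 had at most 161 counts in any sample. Foxa1 was counted in every sample of the other tumor cells and in no TIC sample, and Pgr was counted in 1 sample of 6. In the whole table, edgeR's exactTest with Benjamini-Hochberg adjustment called 189 of 12192 tested genes, 166 higher and 23 lower in TICs, which is 1.55%. Against this background 0 of 8 tested members were called, by exactTest, by edgeR's quasi-likelihood test or by DESeq2, and 0 of 8 had an unadjusted p below 0.05 in exactTest. Over all 10 members, the 2 groups did not overlap for 2, Ehf and Foxa1, both lower in TICs. Among tested genes only, this was 1 of 8 members, Ehf, beside 15.2% of all tested genes, 937 with TICs higher and 920 with TICs lower. The median log2 fold change of the 8 tested members was -0.29, with 7 negative and 1 positive, beside -0.01 for all tested genes. Foxa1 and Pgr, which did not pass the filter on low counts, are not in this median. It was -0.36 to -0.22 when each sample was left out and 0.25 when scaled to 4 epithelial genes, a scale described below.

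Total counts lay between 6781239 and 9100552 per sample, so that 3 counts equal 0.33 to 0.44 CPM, the counts scaled to the depth of a sample. This floor follows from depth alone. A gene that the other samples of its group predicted at 20 to 60 counts was left uncounted in 19.7% to 25.1% of cases in samples of the other tumor cells and in 28.0% to 38.1% of cases in TIC samples. The share of counts from mitochondrial genes was 1.93% to 2.91% in the other tumor cells and 3.21% to 5.01% in TICs, highest in TIC replicate 3. The genes of the sorting gate did not pass the test. Cd24a, for CD24, had 469 ± 115 CPM in the other tumor cells and 370.2 ± 63.6 in TICs, and Thy1, for CD90, had 51.4 ± 27.5 and 123 ± 73.7 (mean ± SD, n = 3; edgeR exactTest adjusted p = 0.98 and 0.35).

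Markers of luminal cells and of other cell types were counted in both groups. The summed level of 7 luminal epithelial markers was 5722 to 6172 CPM in the other tumor cells and 3839 to 4502 CPM in TICs. All of the 7 had a count in every sample, and 0 of 7 were called. That of 8 fibroblast markers was 2857 to 3216 CPM and 7370 to 10892 CPM, with 4 of 8 (Col1a1, Col1a2, Dcn and Dpt) called higher in TICs. The sum of 6 pericyte markers was 286 to 293 CPM and 619 to 954 CPM, with Rgs5 called, and that of 7 endothelial markers was 154 to 160 CPM and 193 to 711 CPM, with none called. The endothelial sum was highest in TIC replicate 3. The sum of 8 basal markers overlapped between the groups, at 603 to 1301 CPM and 625 to 745 CPM. The sum of 8 leukocyte markers was 12.4 to 23.8 CPM and 4.09 to 28.1 CPM. Cd3e and Adgre1 were at 0 in all 6 samples and Ptprc was counted in 1 sample only, whereas Cd68 was counted in every sample, Csf1r in 3 and Itgam in 2. Of 5 adipocyte markers, 4 including Adipoq were at 0 throughout. In such bulk samples marker RNA does not show which cells carried it, and fewer cells of a type and less RNA per cell cannot be told apart. The part of these cell types in the results below was not tested.

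**Figure D1:**
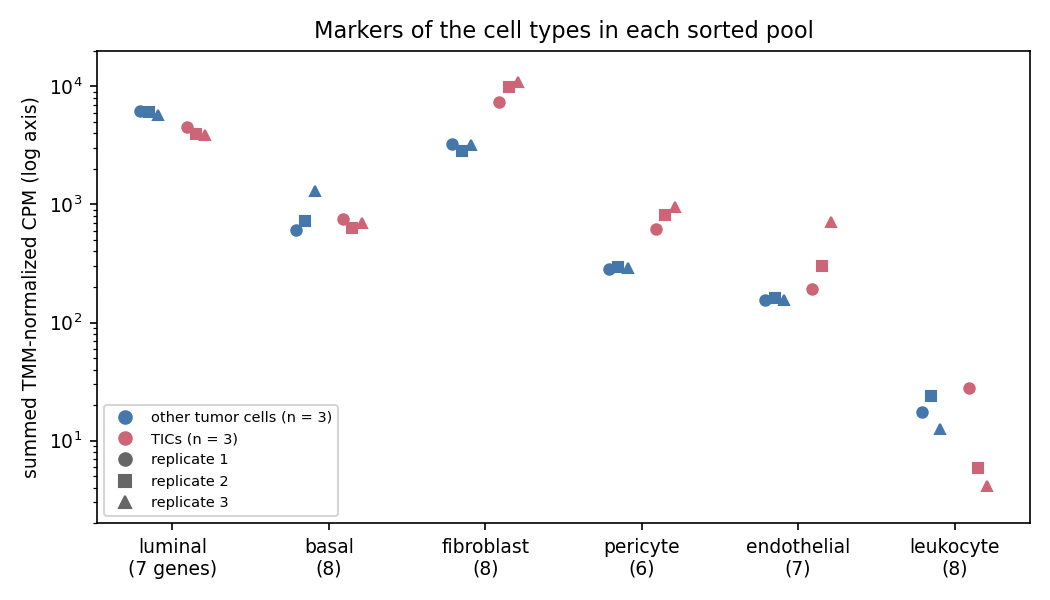
Summed TMM-normalized CPM (log axis) of the marker genes of 6 cell types in each sample, with the 3 samples of the other tumor cells in blue, the 3 TIC samples in red and the number of genes under each name. The luminal sums of TICs, at 3839 to 4502, lie below those of the other tumor cells, and the fibroblast, pericyte and endothelial sums lie above them.

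Levels between genes can be compared only per length of transcript. The length used was that of all annotated exons of a gene joined, 15339 bases for Prlr and 13661 for Esr1. It is not that of the transcript present, so the order is approximate. As CPM per kb of annotated exon, Gata3 stood far above the rest with a mean of 289.6 in the other tumor cells and 260.5 in TICs. Ehf followed with 43.0 and 32.1, and Elf5 with 33.2 and 20.2. Grhl2 had 15.1 in both groups, Spdef 11.7 and 8.91, and Prlr 8.44 and 7.36. Elf3 was at 4.89 and 1.34, Foxa1 at 0.871 and 0, Esr1 at 0.528 and 0.890, and Pgr at 0.0968 and 0. The sample ranges of neighbours in this order did not overlap between Gata3 and Ehf in either group. They overlapped for Grhl2 and Spdef and for Spdef and Prlr in both groups. In each of these pairs the first gene was the higher in most samples but not in all. Ehf and Elf5 overlapped in the other tumor cells and not in TICs, and Ehf was above Elf5 in every sample. Ranges do not compare genes within a sample, so overlap does not show that neighbours were equal. The order of Esr1 and Foxa1 was open in the other tumor cells, where neither was the higher in every sample.

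**Figure D2:**
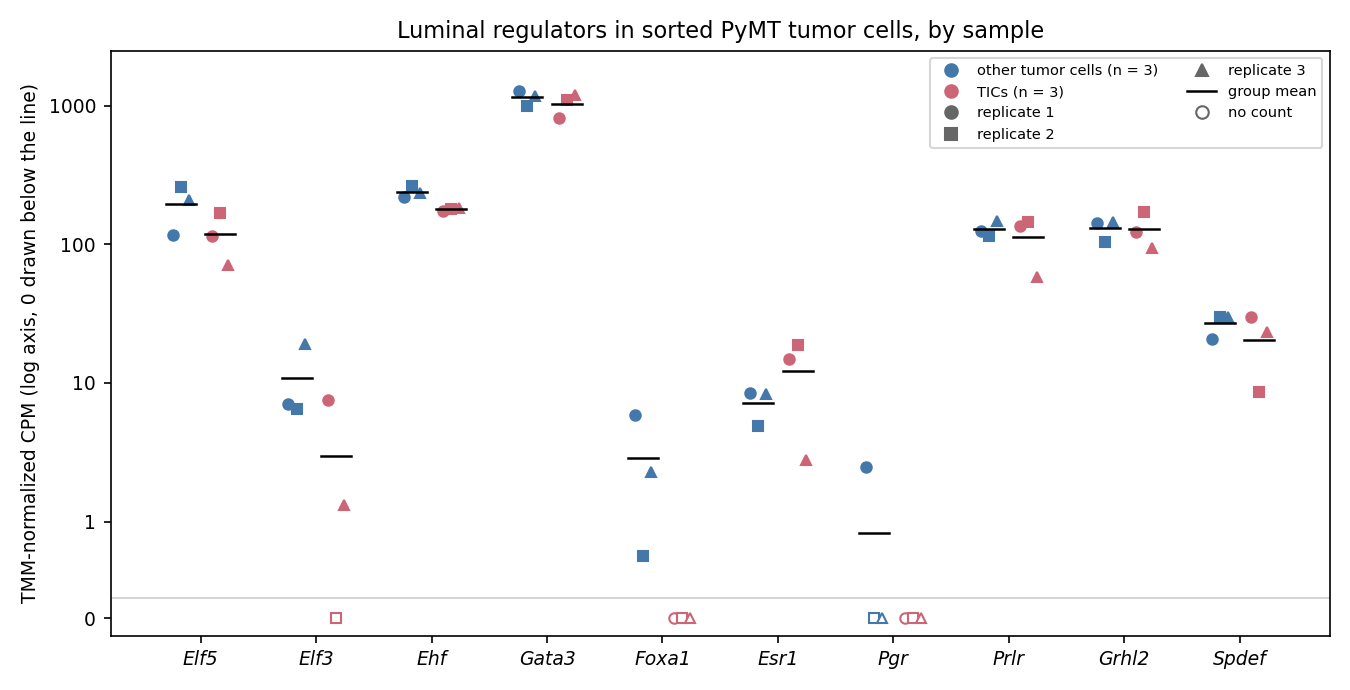
TMM-normalized CPM of the 10 regulators in each sample on a log axis, with samples without a count drawn as open symbols at 0 and horizontal lines at the group means of 3 samples. Gata3 lies near 1000 in every sample, the groups are apart only for Ehf and Foxa1, and Pgr has a count in a single sample.

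Elf5, Elf3 and Ehf are epithelium-specific ETS factors, and Elf5 and Ehf are neighbours on mouse chromosome 2 of GRCm38. Ehf lies at chr2:103263433-103303278 on the minus strand and Elf5 at chr2:103411688-103450989 on the plus strand, 108.4 kb apart. Elf5 had 117, 261 and 208 CPM in replicates 1 to 3 of the other tumor cells and 116, 168 and 71.1 CPM in the TIC replicates. The highest samples were of the other tumor cells, yet their lowest lay within the TIC range. The means were 195 ± 72.7 and 118 ± 48.7 CPM (SD, n = 3). The log2 fold change was -0.72 (SE 0.39, 95% interval -1.48 to 0.04), with an unadjusted p of 0.065 and an adjusted p of 0.70 by edgeR exactTest. It was the smallest p among the tested members. Without TIC replicate 3 the log2 fold change was -0.44, without replicate 2 of the other tumor cells -0.46, and without TIC replicate 2 it was -1.06, with adjusted p of 0.98, 1.0 and 0.42 in the same test.

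Ehf was the most even of the members. It had 221, 263 and 235 CPM in the other tumor cells and 174, 181 and 183 CPM in TICs. Every TIC sample lay below every sample of the other tumor cells. The means were 239.6 ± 21.4 and 179 ± 4.99 CPM (SD, n = 3), a ratio of 0.747, and the log2 fold change was -0.42 (SE 0.28, 95% interval -0.98 to 0.14, edgeR exactTest adjusted p = 0.90). An exact two-sided permutation test over samples gave p = 0.1 for Ehf, the smallest that 3 samples against 3 allow. The coefficient of variation of Ehf within TICs was 2.79%, beside a median of 23.5% for the 1668 tested genes with a mean of 100 to 400 CPM. Of these, 1.08% varied less than Ehf within TICs, and 16.1% varied less within the other tumor cells, where Ehf had 8.92%. Scaled to the epithelial genes Krt8, Krt18, Epcam and Cdh1 instead of by TMM, the log2 fold change of Ehf was 0.15 and the groups overlapped.

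Elf3 (chr1:135253575-135258568, minus strand), which acts in epithelial differentiation, was far lower and uneven. It had 48, 57 and 133 counts in the other tumor cells and 69, 0 and 10 counts in TICs. In the empty TIC replicate 2 the floor of 3 counts was 0.350 CPM, and the exact 95% Poisson interval reached 0.430 CPM. Both cover counting error only. TIC replicate 1 exceeded 2 of the 3 samples of the other group. The means were 10.8 ± 7.10 and 2.97 ± 4.05 CPM (SD, n = 3) and the log2 fold change was -1.86 (SE 1.60, 95% interval -4.99 to 1.27), with an adjusted p of 1.0 by edgeR exactTest. Leaving out TIC replicate 1 moved it to -4.01 and leaving out replicate 3 of the other tumor cells to -1.18, both without a call.

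Gata3 (chr2:9857078-9890034, minus strand), a zinc finger factor required for luminal cells, was the most abundant regulator of the 10. It had 1277, 1000 and 1179.6 CPM in the other tumor cells and 819, 1098 and 1191 CPM in TICs. Only TIC replicate 1 fell outside the range of the other group. The means were 1152 ± 140.5 and 1036 ± 193 CPM (SD, n = 3), with a log2 fold change of -0.15 (SE 0.28, edgeR exactTest adjusted p = 1.0). The 95% interval of -0.70 to 0.39 covers a range from a decrease to an increase. The antisense gene Gm13256, which shares exon bases with Gata3 on the other strand, had 51 counts in replicate 2 of the other tumor cells and none elsewhere, against at least 7454 counts of Gata3 per sample.

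Spdef (chr17:27714352-27728955, minus strand), an ETS factor of secretory epithelia, had 20.7, 29.8 and 30.2 CPM in the other tumor cells and 29.8, 8.63 and 23.2 CPM in TICs. TIC replicate 2 was the single low sample. The means were 26.9 ± 5.37 and 20.5 ± 10.8 CPM (SD, n = 3) and the log2 fold change was -0.39 (SE 0.70, 95% interval -1.77 to 0.99, edgeR exactTest adjusted p = 1.0). Without TIC replicate 2 it was -0.02, and without TIC replicate 1 it was -0.75.

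Grhl2 (chr15:37233036-37363569, plus strand), a grainyhead factor of epithelial junctions, had nearly equal means. It had 142, 103 and 145 CPM in the other tumor cells and 123, 173 and 93.9 CPM in TICs. The TIC samples held both the highest and the lowest of the 6 values. The means were 130.3 ± 23.3 and 129.9 ± 39.9 CPM (SD, n = 3), and the log2 fold change of 0.00 had a 95% interval of -0.67 to 0.66 (edgeR exactTest adjusted p = 1.0). The antisense gene Gm16136 shares 169 exon bases with Grhl2 and had 752, 989 and 848 counts in the other tumor cells and 1394, 271 and 750 in TICs. The strand setting of the counting is not given in the sources used here, so reads in this stretch cannot be told apart.

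The receptors ranged widely in counts, and Pgr was nearly uncounted. Prlr (chr15:10177238-10349180, plus strand), the prolactin receptor, had 126, 114 and 148 CPM in the other tumor cells and 135, 146 and 58.2 CPM in TICs. TIC replicates 1 and 2 were within the range of the other group and TIC replicate 3 lay well below it. The means were 129 ± 17.5 and 113 ± 47.8 CPM (SD, n = 3), with a log2 fold change of -0.20 (SE 0.37, 95% interval -0.93 to 0.54, edgeR exactTest adjusted p = 1.0). Without TIC replicate 3 the log2 fold change was 0.14, so its sign rested on that sample.

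Esr1 (chr10:4611593-5005614, plus strand), the estrogen receptor, had 58, 43 and 58 counts in the other tumor cells and 136, 161 and 21 counts in TICs. It was the only tested member with a positive log2 fold change, and 2 of 3 TIC samples were above the other group while TIC replicate 3 was below it. In CPM these were 8.46, 4.88 and 8.30 against 14.9, 18.8 and 2.77, with means of 7.21 ± 2.02 and 12.2 ± 8.36 (SD, n = 3). The log2 fold change was 0.75 (SE 1.17, 95% interval -1.53 to 3.04, edgeR exactTest adjusted p = 1.0). The exact 95% Poisson interval of TIC replicate 3, 1.72 to 4.24 CPM, did not reach those of TIC replicates 1 and 2, which began at 12.5 and 16.0 CPM. The spread among TICs was thus larger than counting error, the sole error these intervals cover. Without TIC replicate 3 the log2 fold change was 1.24, and without TIC replicate 2 it was 0.30, with adjusted p of 0.97 and 1.0 by exactTest. TIC replicate 3 had the lowest level of the 6 samples for 4 of the 8 tested members, Elf5, Esr1, Prlr and Grhl2. The share of all tested genes lowest in that sample is not given, so this cannot be read as a trait of these members. That sample also left the most genes predicted at 20 to 60 counts uncounted, 38.1%.

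Pgr (chr9:8899833-8968611, plus strand), a target gene of the estrogen receptor in normal mammary epithelium, had 17 counts in replicate 1 of the other tumor cells and none in the other 5 samples. It did not pass the filter of more than 1 CPM in at least 3 samples. The pooled level in the other tumor cells was 0.750 CPM, and the 3 TIC samples together allowed up to 0.119 CPM, from 3 counts over the group.

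Foxa1 (chr12:57540628-57546916, minus strand) had 40, 5 and 16 counts in the other tumor cells and 0, 0 and 0 counts in TICs. It did not pass the filter either, so it was not tested in the main comparison. The pooled level in the other tumor cells was 2.69 CPM, 22.7-fold above a floor of 3 counts over the TIC group. This floor covers counting error only. TIC samples left 28.0% to 38.1% of genes predicted at 20 to 60 counts uncounted, so the true difference can be smaller. The 22.7-fold bound became 11.2-fold without replicate 1 of the other tumor cells, which held 40 of the 61 counts, and 34.1-fold without its replicate 2. It was 14.5-fold and 15.0-fold without TIC replicates 1 and 2. The exact two-sided permutation test over samples gave p = 0.1, the smallest possible, and with no filter exactTest gave an unadjusted p of 0.053 and an adjusted p of 0.94. Such a pattern was common at this level. Of 1057 genes with 46 to 76 counts in the other tumor cells as a whole, 15.8% had no count in any TIC sample, and of 876 genes with as many counts in TICs, 21.0% had none in any sample of the other group.

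Promoter sequences are shown for Prlr, the receptor with the most counts, for Pgr, the receptor counted in 1 sample, and for Foxa1. They are RefSeq sequences of GRCm38.p6, which held 12 windows for 8 of the 10 members, each from 250 bases before to 50 bases after an annotated start. Printed are the bases before the start that lie outside annotated exons, in the direction of the gene. The Prlr stretch is an alternative start within the gene, at chr15:10223656-10223905 on the plus strand. That of Pgr is at chr9:8899583-8899832 on the plus strand, and that of Foxa1 at chr12:57546122-57546361 on the minus strand, inside the annotated gene. Capitals mark the forkhead motif TGTTTAC or its reverse complement and the STAT5 motif TTCNNNGAA.
Prlr: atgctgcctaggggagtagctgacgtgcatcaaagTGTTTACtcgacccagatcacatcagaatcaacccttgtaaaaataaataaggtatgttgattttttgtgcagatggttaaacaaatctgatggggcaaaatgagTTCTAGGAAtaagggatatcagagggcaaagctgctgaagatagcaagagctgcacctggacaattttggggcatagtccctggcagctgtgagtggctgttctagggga
Pgr: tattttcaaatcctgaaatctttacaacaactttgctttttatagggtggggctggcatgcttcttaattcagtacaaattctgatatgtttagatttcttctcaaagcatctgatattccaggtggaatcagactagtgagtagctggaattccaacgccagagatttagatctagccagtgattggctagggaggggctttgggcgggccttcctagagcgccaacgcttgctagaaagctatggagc
Foxa1: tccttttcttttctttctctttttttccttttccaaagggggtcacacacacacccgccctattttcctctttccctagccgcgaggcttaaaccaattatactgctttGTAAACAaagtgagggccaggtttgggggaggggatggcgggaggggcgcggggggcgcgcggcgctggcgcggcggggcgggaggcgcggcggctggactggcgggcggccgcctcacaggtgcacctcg
The forkhead motif was searched on both strands and occurred in 2 of the 12 windows, those of Foxa1 and the alternative Prlr start, against 3.65% of 32851 windows of all genes. The STAT5 motif occurred in 2 of 12, the Prlr window shown and a second start of Esr1, against 8.30%. None of these matches overlapped another. The GATA motif AGATAA was in 0 of the 12 windows and in 11.2% of all windows. The ETS motif CCGGAAG was in 0 of 12 and in 8.86% of all, and the nuclear receptor core motif AGGTCA was in 0 of 12 and in 16.3% of all. The GRHL motif AACCGGTT was in 0 of 12 and in 0.146% of all. The Prlr window shown was the only one of that gene with a match. The other windows of Prlr, with stretches at chr15:10176988-10177237 and chr15:10293401-10293650, held none of these motifs. These matches are a description of letters and were not measured as binding, and no link between motifs and RNA levels was tested.

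**Figure D3:**
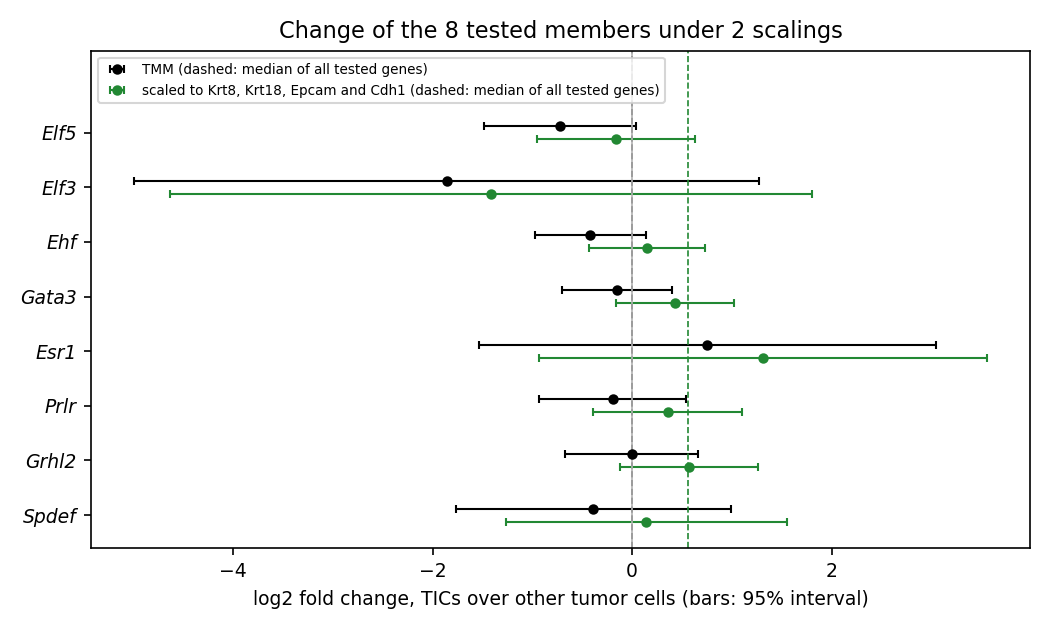
Log2 fold change of TICs over the other tumor cells for the 8 tested members, with 95% intervals as bars, normalized by TMM (black) or scaled to Krt8, Krt18, Epcam and Cdh1 (green). Dashed lines mark the median of all tested genes, -0.01 and 0.56, and all intervals cover 0 under both scalings.

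All of the levels above are relative to the whole RNA of a pool. The epithelial genes Krt8, Krt18, Epcam and Cdh1, for keratins and adhesion molecules, were each lower in every TIC sample than in every sample of the other tumor cells. Their log2 fold changes were -0.53, -0.69, -0.34 and -0.71, with adjusted p of 0.69, 0.30, 0.96 and 0.30 by edgeR exactTest, so none was called. DESeq2, which made the most false calls on simulated counts, called Krt18 and Cdh1 lower, and the quasi-likelihood test called neither. Scaling each sample to these 4 genes moved the median log2 fold change of all tested genes to 0.56. On that scale Gata3 was at 0.43, Grhl2 at 0.57, Prlr at 0.36, Ehf at 0.15 and Spdef at 0.14, each positive instead of negative, and Elf5 was at -0.16, with no member called. Relative to the moved median, only Grhl2, level with it, and Esr1, at 1.31, were not below it.

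The genes around these regulators were read from 7 lists of 80 different genes, 67 of them tested. In TICs 1 gene was called higher and 1 lower, 2.99% of those tested beside 1.55% of all tested genes. The groups did not overlap for 13 of the 67, or 19.4%, beside 15.2% of all, with TICs higher for 5 and lower for 8.

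Both calls were in the list of 12 hormone-sensing genes, 9 of them tested. Prom1, the surface antigen CD133 used to sort hormone-sensing luminal cells, had 934, 803 and 734 counts in the other tumor cells and 300, 367 and 166 in TICs. Each TIC sample had at most 367 counts and each sample of the other group at least 734. The means were 110.8 ± 23.1 and 32.6 ± 10.4 CPM (SD, n = 3), and Prom1 fell by 1.77 on the log2 scale (SE 0.40, edgeR exactTest adjusted p = 0.0062). Without replicate 1 of the other tumor cells the change was -1.58 and the adjusted p of exactTest 0.16. Ly6a, the antigen Sca-1, known on hormone-sensing luminal cells and also on endothelial and stromal cells, had 106, 308 and 88 counts against 1109, 1293 and 533. Its means were 21.0 ± 12.2 and 114 ± 40.7 CPM (SD, n = 3), and it rose by 2.44 on the log2 scale (SE 0.48, edgeR exactTest adjusted p = 0.00078). Both calls were weaker by edgeR's quasi-likelihood test, which made fewer false calls on simulated counts than exactTest. That test gave adjusted p of 0.093 for Prom1 and 0.073 for Ly6a, close to the threshold of 0.1. The 2 antigens of this lineage thus differed in opposite directions. The fibroblast, pericyte and endothelial sums were also higher in TICs, and any link of these sums to either antigen was not tested.

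Another 3 genes of the list, all low, were higher in every TIC sample than in any sample of the other group without passing the test. Of all tested genes, 15.2% were without overlap in either direction. Greb1, an estrogen receptor target, had 28, 0 and 0 counts in the other tumor cells and 88, 160 and 37 in TICs, and Tbx3, a T-box factor of hormone-sensing cells, had 56, 5 and 29 against 179, 246 and 198. The log2 fold changes were 3.01 (SE 1.80) and 2.53 (SE 1.01), with adjusted p of 0.90 and 0.44 by edgeR exactTest, and Tbx3 was called only when scaled to the epithelial genes. Wnt4, a target of the progesterone receptor named here after its values were seen, had 47, 2 and 6 counts against 146, 67 and 65 (adjusted p = 0.97 by exactTest). Areg and Tnfsf11, the secreted signals of hormone-sensing cells, did not pass the filter, and Tnfsf11 was at 0 in all samples. Xbp1, the most abundant gene of the list, had 398 ± 37.0 and 294 ± 115 CPM (SD, n = 3; adjusted p = 0.95 by exactTest). The median log2 fold change over the 9 tested genes of the list was 0.67, beside -0.01 for all tested genes. It was the value of Agr2, counted in 3 samples only. It was 0.31 and 1.48 without replicates 3 and 2 of the other tumor cells, 1.05 and 1.27 without TIC replicates 2 and 3, and -0.09 over the 4 genes with at least 10 counts in every sample.

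None of the 9 tested genes of prolactin signaling was called, and their median log2 fold change was -0.12, or -0.26 to 0.0051 with each sample left out, the extremes being without TIC replicates 1 and 3. Id2, a target of this pathway in alveolar cells, had 383 ± 85.8 CPM in the other tumor cells and 239.3 ± 10.7 in TICs (SD, n = 3) with no overlap, a log2 fold change of -0.68 and an adjusted p of 0.42 by edgeR exactTest. Cebpb, a factor of luminal differentiation, was the most abundant of the list at 740.3 ± 107 and 765 ± 143 CPM. Socs2, a feedback inhibitor of cytokine receptors, had 134 ± 40.9 and 126 ± 28.7 CPM. Socs1, an inhibitor of Jak kinases, had the largest log2 fold change, 1.97, and Jak2 had -0.74, both with overlapping groups (adjusted p = 0.71 and 1.0 by exactTest).

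Of the products of alveolar cells, 0 of 10 tested genes were called and 0 of 10 were free of overlap, and the median log2 fold change was 0.07. That median was not stable, at -0.59 and -0.20 without TIC replicates 1 and 2, 0.36 without TIC replicate 3, and -0.11, 0.42 and -0.09 without replicates 1 to 3 of the other tumor cells. Lcn2, Csn3 and Lalba, for lipocalin 2, kappa casein and alpha lactalbumin, were abundant in all samples. Lcn2 had 4116 ± 372 CPM in the other tumor cells and 3092 ± 728 in TICs, Csn3 had 2286 ± 240.6 and 2334 ± 878, and Lalba had 1021 ± 379 and 738 ± 339.9 (SD, n = 3). Milk transcripts varied widely within groups. Csn2, for beta casein, had 219, 238 and 155 counts in the other tumor cells and 1312, 1 and 1 in TICs, and Wap, for whey acidic protein, had 4, 49 and 0 against 192, 21 and 0. TIC replicate 1 was the highest sample for both. Without it, Csn2 was called lower in TICs.

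Genes related to the epithelial role of Grhl2 had a median log2 fold change of -0.47, with 8 of 10 tested genes negative and none called. This median was -0.67 to -0.35 with each sample left out and 0.08 when scaled to the epithelial genes. The groups did not overlap for 3 of the 10, beside 15.2% of all tested genes. The 3 were Epcam and Cdh1, named above, and Esrp1, a splicing factor of epithelial cells. Cldn7, a claudin, had 274 ± 55.1 CPM in the other tumor cells and 212 ± 61.9 in TICs (SD, n = 3). Ovol2, a repressor of mesenchymal genes, showed how uneven single samples were, with 362, 95 and 136 counts in the other tumor cells and 1, 1 and 164 in TICs. Its relative Ovol1 had 22, 9 and 40 counts against 0, 189 and 0. Without TIC replicate 3, Ovol2 was called lower in TICs.

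**Figure D4:**
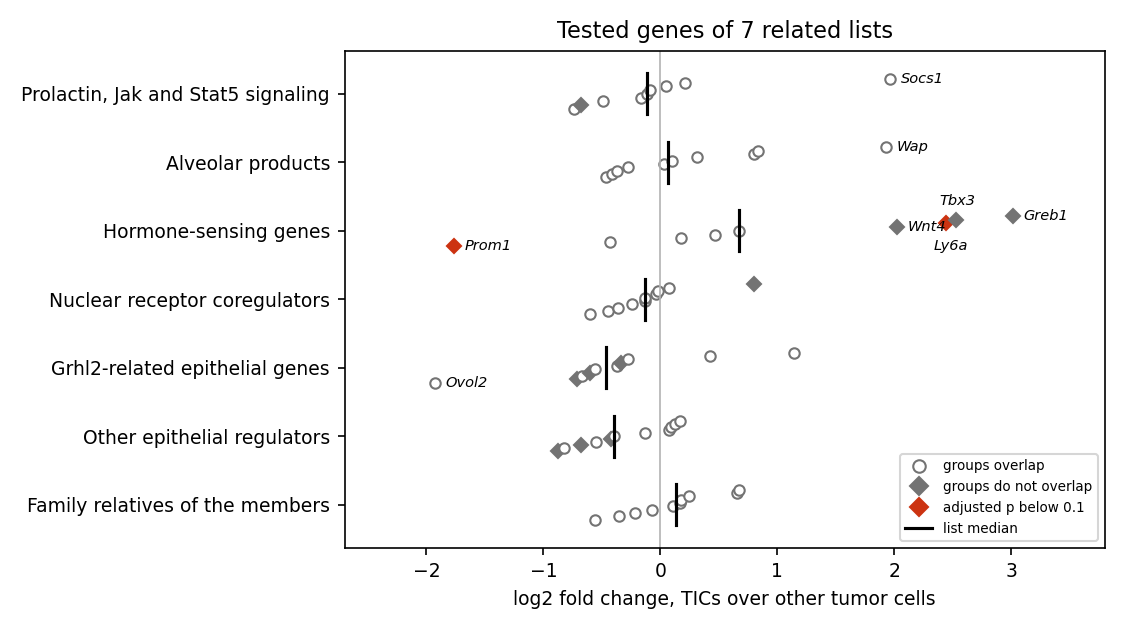
Log2 fold change of TICs over the other tumor cells for the tested genes of 7 lists, with diamonds where the 3 and 3 samples do not overlap, red where the adjusted p is below 0.1 and black lines at list medians. Prom1 and Ly6a, among the hormone-sensing genes, are the red points, at -1.77 and 2.44.

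Among 11 other regulators of mammary epithelium, all tested, none was called and the median log2 fold change was -0.40. It was -0.035 without replicate 3 of the other tumor cells, -0.20 without TIC replicate 3 and 0.16 when scaled to the epithelial genes. Nfib, a nuclear factor I protein, was the most abundant with 3712 ± 280.1 CPM in the other tumor cells and 2773 ± 314 in TICs. Lmo4, a partner of Gata3 and other factors, had 1113 ± 94.3 and 697 ± 91.7 CPM, and Tfap2c, the factor AP-2 gamma, had 359 ± 28.4 and 196 ± 67.4 (SD, n = 3). The groups did not overlap for these 3 of the 11, beside 15.2% of all tested genes. All 3 were lower in TICs, with log2 fold changes of -0.42, -0.68 and -0.87 and adjusted p of 0.86, 0.34 and 0.25 by edgeR exactTest. Sox9, a factor of luminal progenitors, overlapped, with 1038 ± 121 and 945 ± 57.2 CPM. Myb, which is expressed in hormone-sensing cells, had 41, 28 and 179 counts against 112, 63 and 0. DESeq2 called Lmo4 lower and the quasi-likelihood test did not, and Tfap2c was called lower when TIC replicate 1 was left out.

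Of 10 coregulators of nuclear receptors, all tested, none was called and the median log2 fold change was -0.13, or -0.20 to -0.0044 with each sample left out, the extremes being without TIC replicates 3 and 1. The corepressor Ncor1 had 816 ± 105 CPM in the other tumor cells and 858 ± 279.9 in TICs, and the acetyltransferase Crebbp had 719.8 ± 139 and 609 ± 62.2 CPM (SD, n = 3). Ncoa1, a coactivator, had 207 ± 74.9 and 152 ± 67.0 CPM. Ep300, the paralog of Crebbp, was above the other group in every TIC sample, at 75.1 ± 14.1 and 131 ± 25.4 CPM, a log2 fold change of 0.80 (SE 0.34, adjusted p = 0.41 by exactTest). It was called only when scaled to the epithelial genes. Ncoa2 had a log2 fold change of -0.61 with an SE of 0.96.

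Relatives of the members from the same families were also listed, 19 genes. The files held no count at all for 6 of them, including Esr2, the beta form of the estrogen receptor, Foxa2 and Grhl3. Of the 10 tested none was called, and none was free of overlap. The glucocorticoid receptor Nr3c1 had 332 ± 5.77 CPM in the other tumor cells and 317 ± 80.6 in TICs. Elf1 had 149.6 ± 49.3 and 161 ± 76.5 CPM, and Grhl1 had 154 ± 66.6 and 105 ± 40.1 (SD, n = 3). Ets1 had 97.3 ± 2.48 and 153 ± 96.5 CPM, with 1972 of its counts in TIC replicate 3, the sample with the highest endothelial sum, and it was called higher when scaled to the epithelial genes. Gata6 was near the floor, with 9, 17 and 16 counts against 54, 25 and 0.

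The genes whose pattern over the 6 samples was most like that of the 3 most abundant members were taken by Pearson's r of log2 CPM among 8761 genes with a mean of at least 10 CPM. For Gata3 these were Clasp1 (r = 0.997), Raph1 (r = 0.989) and Denr (r = 0.987). For Ehf they were Fgfr2 (r = 0.997), a fibroblast growth factor receptor of mammary epithelium with 53.1 CPM in the other tumor cells and 17.3 in TICs, Cpeb4 (r = 0.985) and Prkca (r = 0.984). For Elf5 they were Apmap (r = 0.989), Inhbb (r = 0.983) and Bmpr1a (r = 0.976). The samples share their library depth and cell mixture across genes, and 76, 86 and 81 genes had r above 0.9 with Gata3, Ehf and Elf5, so these are descriptions of 6 points. Among pairs of tested members, r ranged from -0.62 for Grhl2 and Spdef to 0.90 for Elf3 and Spdef, and it was 0.71 for Elf5 and Ehf.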

How the data were processed

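The RNA-seq libraries comprised 3 TIC samples and 3 samples of other CD45- tumor cells, made from pools of 4 sorts. Reads had been trimmed by the authors (Trimmomatic 0.32), mapped to GRCm38 (STAR 2.4.0), restricted to unique alignments (SAMtools 1.1) and counted per gene (HTSeq). Raw counts were deposited. The annotation release and strand setting are not given in the sources used here. Symbols and exon lengths were taken from GENCODE M21. A gene was tested if over 1 CPM in 3 or more samples (12192 genes), since the study gives no value for its CPM threshold. Counts were normalized by TMM and compared with exactTest in edgeR 4.0.16 under R 4.3.3, with Benjamini-Hochberg adjustment over all tested genes and a threshold of 0.1. Standard errors came from the negative binomial fit with tagwise dispersions. The study calls the samples biological triplicates from pools of 4 mice. Its legend on RNA quality, which covers both groups, gives a total of mice that equals 3 pools of 4. The study does not state outright whether both groups came from the same mice. The tests treated the groups as independent.

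From the related lists, all called genes, the 3 most abundant and the 2 with the largest log2 fold change were named. The members and lists were chosen with earlier results of these data known. Alternatives were edgeR's quasi-likelihood test, DESeq2 1.42.0, RLE size factors, library size alone, scaling to Krt8, Krt18, Epcam and Cdh1, no filter, at least 10 counts in every sample, an adjusted p below 0.05 and leaving out each sample. On simulated counts exactTest and DESeq2 made more false calls than their threshold names, DESeq2 the most. Most 2-fold changes and many 4-fold changes were missed, so a gene without a call may still differ. Intervals of single counts are exact 95% Poisson intervals and, like floors of 3 counts, cover counting error only.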

Additional observations from a re-analysis of the deposited data

How the results depend on the processing

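No member was called under any of the alternatives run. Elf5 and Elf3 were negative and Esr1 positive in all of them, from -1.06 to -0.16, from -4.01 to -1.18 and from 0.30 to 1.31 on the log2 scale. Scaling to 4 epithelial genes reversed Ehf (0.15), Gata3 (0.43), Grhl2 (0.57), Prlr (0.36) and Spdef (0.14). On that scale 1 member was without overlap between the groups, the untested Foxa1. Its 3 TIC samples without a count lie below the other group under any scaling. The share of all genes without overlap on that scale is not given. The scaling also moved the median of all tested genes from -0.01 to 0.56, and Ehf, Gata3, Prlr and Spdef lay below that median. Grhl2, close to 0, was also positive with DESeq2 (0.024), with RLE size factors (0.024), with no filter (0.010) and with at least 10 counts in every sample (0.035). Leaving out each sample in turn gave -0.26 to 0.20 for Grhl2, -0.25 to 0.0034 for Gata3, -0.42 to 0.14 for Prlr and -2.01 to -1.53 for Prom1. With a sample left out, 2 to 3 members were without overlap. Groups of 3 and 2 samples separate more easily, and the share of all genes is not given for them. These counts therefore cannot be read as a stable or growing separation. The number of all tested genes called moved from 189 to 50 with the quasi-likelihood test, 306 with DESeq2, 875 when scaled to the epithelial genes, 112 with no filter and 116 at an adjusted p below 0.05. It was 68 to 314 when each sample was left out, with 68 without replicate 3 of the other tumor cells, 82 and 86 without its replicates 2 and 1, 105 and 125 without TIC replicates 2 and 3, and 314 without TIC replicate 1. The cause of these shifts was not tested. Elf3 could not be fitted with at least 10 counts in every sample. No paired analysis was possible because the labels number the samples 1 to 6 across both groups, which may nevertheless share mice. Pgr, Foxa1 and Elf3 lie at counts where many genes have none in a sample, more often in TICs although their libraries were mostly deeper, and the cause was not tested. The bounds for Foxa1 and the members' medians with samples left out were added after seeing the data.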
